A study of Mus musculus with 1016 samples.

Results

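Tead4, Cdx2, Gata3, Tfap2c, Eomes, Elf5, Krt8 and Krt18 are 8 genes of the trophectoderm, the outer cell layer of the blastocyst. They were chosen by name, and were read as the 50-kb bins that overlap each gene, with 0.3 Mb on either side, among 20807 protein-coding genes of chromosomes 1 to 19. Single-cell Repli-seq sequences the DNA of a cell in S phase, when replicated bins give more reads than bins still to be copied, and the deposited tables state for each bin of each cell whether it had replicated (1) or not (0). Of 1016 labelled samples, 661 cells or pronuclei in 14 groups were used, each with a replication score, the percentage of its called bins that had replicated, of 10 to 90%.

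The natural stages were untreated (C57BL/6J x CBA) x DBA/2J embryos: 53 zygotes collected 20 to 26 h after the hCG injection that induces ovulation, 54 cells of 2-cell embryos (32 to 40 h), 50 of 4-cell embryos (50 to 56 h), 49 of 8-cell embryos (66 to 72 h), 34 of 16-cell embryos (77 to 80 h), 44 of morulae (90 to 96 h) and 70 of the inner cell mass, or ICM (96 to 104 h). The ICM was taken from blastocysts as the cells not labelled by fluorescent microspheres applied before dissociation, whereas inner and outer cells of 16-cell embryos and morulae were not separated. Sorted trophectoderm cells were not analysed here, so the values describe how these genes replicated in whole cleavage-stage embryos and in the ICM. Of the same genotype were 56 zygotes from in vitro fertilization (IVF; collected at 5.5 h after insemination and at later hours) and 3 groups of 2-cell embryos collected between 34 and 40 h. These were 42 cells exposed to α-amanitin, an inhibitor of RNA polymerase II, at 0.1 mg/ml, 67 cells exposed to DRB, an inhibitor of transcription elongation, at 100 μM (both present after 17 h), and 56 cells of embryos injected at 18 h with 2 μg/μl mRNA of KDM5B, a demethylase of histone H3 lysine 4. Parthenotes (49 cells, 5.5 to 12 h after activation with Sr2+) and 20 maternal pronuclei came from (C57BL/6J x CBA)F1 oocytes, and 17 paternal pronuclei carried the DBA/2J genome. Embryos of each group were pooled from several litters, and no label ties a cell to an animal, so each group counts as a single sample. The comparisons between groups below therefore carry no p-value.

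In the early mouse embryo, outer cells become polarized and keep the Hippo kinases inactive, so that YAP enters the nucleus and binds TEAD4. TEAD4 then activates Cdx2 and Gata3, whose products, with TFAP2C, drive the trophectoderm programme, and EOMES and ELF5 act with CDX2 in the trophoblast stem cells that descend from it. Krt8 and Krt18 encode the paired type II and type I keratins of simple epithelia, which are among the earliest cytoskeletal products of the outer layer. Replication timing (RT) is a separate property of these loci. It states when in S phase the surrounding domain is copied, and the tables hold no expression.

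Both a share of cells and an RT are given for each gene. The share of cells is the number of cells in which most of the called bins of the gene had replicated, out of the cells with a call, with an exact (Clopper-Pearson) 95% interval that covers counting error only. How many of all protein-coding genes had separate intervals between groups is not given, so separate intervals have no background here. RT is the share of cells replicated in a bin, averaged over 16 overlapping intervals of replication score and then over the bins of the gene, and runs from 0 (late) to 1 (early). The averaging lessens the effect of a group being rich in cells of late S phase but does not remove it. Each interval takes the cells that fall in it, and intervals without a call are left out. An RT of 0.5 or more is called early, and a difference in RT of 0.2 or more between groups is called earlier or later and set beside the percentage of all protein-coding genes that passed it.

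Across the natural stages, the 8 genes differed more from each other in 2-cell and 4-cell embryos than in 16-cell embryos and morulae. Early RT was found for 7 of the 8 genes in zygotes (63.6% of all protein-coding genes), 3 in 2-cell embryos (56.4%), 4 in 4-cell embryos (63.1%), 4 in 8-cell embryos (73.5%), all 8 in both 16-cell embryos (80.1%) and morulae (82%), and 4 in the ICM (67.5%). The median RT of the 8 genes was 0.590 in zygotes, 0.492 in 2-cell, 0.494 in 4-cell, 0.502 in 8-cell and 0.722 in 16-cell embryos, 0.791 in morulae and 0.540 in the ICM. The median over all protein-coding genes was 0.563, 0.527, 0.578, 0.594, 0.690, 0.733 and 0.573 at the same stages. It too was highest in morulae and fell in the ICM. In 2-cell, 4-cell and 8-cell embryos and in the ICM it lay above the median of the 8 genes, and at the other stages below it. In 4-cell against 2-cell embryos the median difference was −0.054 over the 8 genes and 0.060 over all genes. In 2-cell embryos the RT of the 8 genes spanned 0.358 (Eomes) to 0.791 (Elf5), and 10 of the 28 pairs of genes had exact intervals that did not overlap. In morulae RT spanned 0.646 (Tfap2c) to 0.840 (Krt18), and 0 of 28 pairs were separated. Genes next to each other in the order of shares had overlapping intervals in each of the 14 groups.

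**Figure D1:**
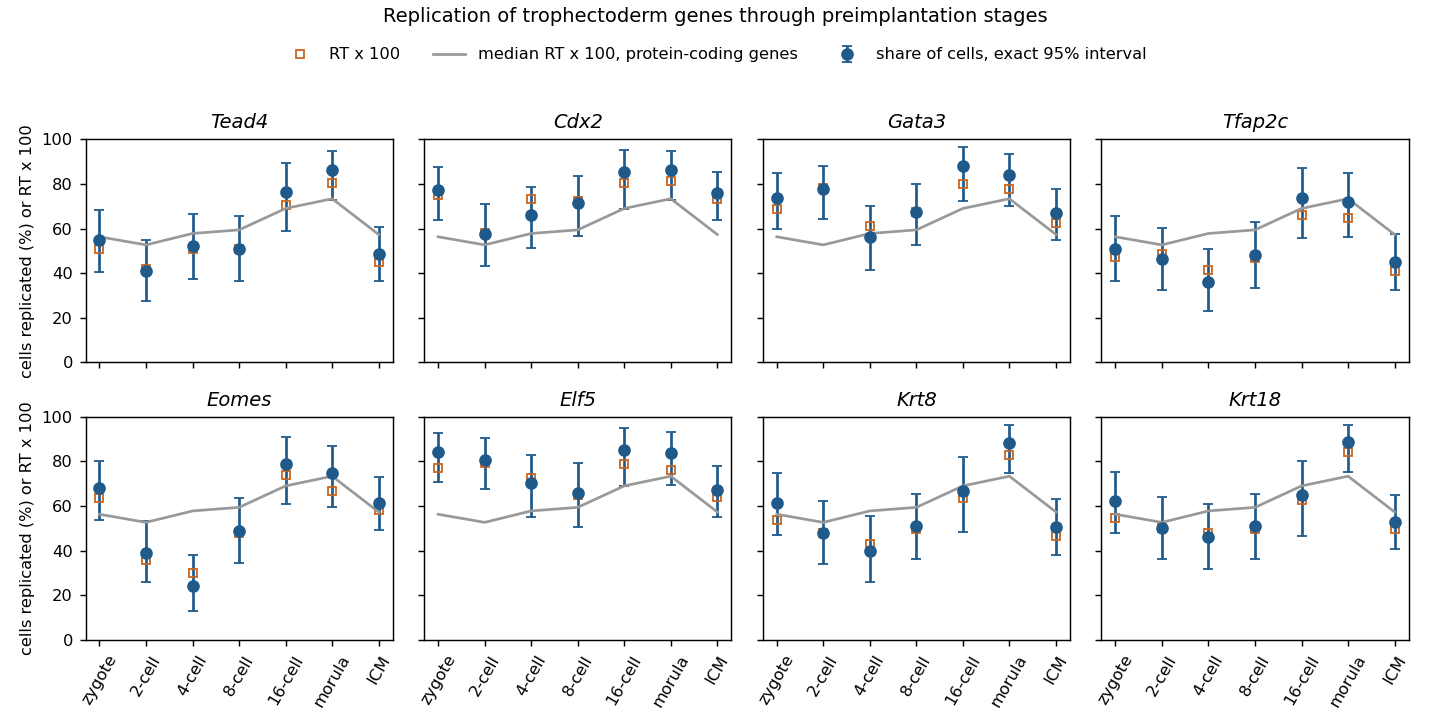
Share of cells with each gene replicated (filled circles, % on the y axis, with exact 95% intervals) and RT multiplied by 100 (open squares) at the 7 natural stages on the x axis, with the median RT of all protein-coding genes as a grey line. The RT squares of Gata3 and Elf5 stay above the grey line from zygote to ICM. Those of Krt8, Krt18 and Tead4 lie below it in 2-cell, 4-cell and 8-cell embryos, above it in morulae (shares of 88.4%, 88.6% and 86.4% of cells) and below it again in the ICM (50.7%, 52.9% and 48.6%).

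Tead4 encodes the DNA-binding partner of YAP that is required for the trophectoderm fate. It lies on chromosome 6 (128224288 to 128300823, minus strand, GRCm38) and spans 3 bins. It had replicated in 29 of 53 zygotes (54.7%, interval 40.4 to 68.4%), 22 of 54 2-cell cells (40.7%, 27.6 to 55%), 26 of 50 4-cell cells (52%), 25 of 49 8-cell cells (51%), 26 of 34 16-cell cells (76.5%), 38 of 44 morula cells (86.4%, 72.6 to 94.8%) and 34 of 70 ICM cells (48.6%, 36.4 to 60.8%). Up to the 8-cell stage the locus had thus been copied in about as many cells as not, and the morula stood apart from both the 2-cell stage and the ICM. RT was 0.509, 0.417, 0.510 and 0.509 in zygotes, 2-cell, 4-cell and 8-cell embryos, 0.706 in 16-cell embryos, 0.804 in morulae and 0.452 in the ICM. In morulae this was earlier than 70.8% of protein-coding genes, and in the ICM earlier than 22.3%.

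Cdx2 encodes the homeodomain factor that keeps the trophectoderm fate and restrains Pou5f1 there. It lies on chromosome 5 (147300805 to 147307270, minus strand) within a single bin. It had replicated in 41 of 53 zygotes (77.4%, 63.8 to 87.7%), 31 of 54 2-cell cells (57.4%, 43.2 to 70.8%), 33 of 50 4-cell cells (66%), 35 of 49 8-cell cells (71.4%), 29 of 34 16-cell cells (85.3%), 38 of 44 morula cells (86.4%, 72.6 to 94.8%) and 53 of 70 ICM cells (75.7%, 64 to 85.2%). It was early at all 7 stages, with the lowest RT in 2-cell embryos (0.578) and the highest in morulae (0.812). In the ICM, where the gene is silenced during normal development, its RT of 0.730 was earlier than that of 92.7% of protein-coding genes.

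Gata3 encodes a zinc-finger factor that acts beside CDX2 downstream of TEAD4. It lies on chromosome 2 (9857078 to 9890034, minus strand) within a single bin. Its share was 39 of 53 zygotes (73.6%), 42 of 54 2-cell cells (77.8%, 64.4 to 88%), 28 of 50 4-cell cells (56%, 41.3 to 70%), 33 of 49 8-cell cells (67.3%), 30 of 34 16-cell cells (88.2%), 37 of 44 morula cells (84.1%) and 47 of 70 ICM cells (67.1%). In 2-cell embryos its RT of 0.780 was earlier than 98.8% of protein-coding genes, and in IVF zygotes its RT of 0.882 was earlier than 99.9%. In morulae the same gene, at 0.778, was earlier than 62.5% of genes.

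Elf5, an ETS-family factor of the trophoblast stem cell circuit whose promoter is methylated in the embryonic lineage, was the steadiest of the 8 genes. It lies on chromosome 2 (103411688 to 103450989, plus strand) in 2 bins. Its share was 42 of 50 zygotes (84%), 42 of 52 2-cell cells (80.8%, 67.5 to 90.4%), 33 of 47 4-cell cells (70.2%), 31 of 47 8-cell cells (66%), 29 of 34 16-cell cells (85.3%), 36 of 43 morula cells (83.7%) and 47 of 70 ICM cells (67.1%). Over all 14 groups its RT ranged over 0.185, from 0.605 in parthenotes to 0.791 in 2-cell embryos, and 0 of 91 pairs of groups had exact intervals that did not overlap. Only 1.51% of the 19822 protein-coding genes with a value in every group had a smaller range. Elf5 and Gata3 were early in all 14 groups, as were 20.7% of protein-coding genes.

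Eomes, a T-box factor needed for the proliferation of trophoblast stem cells, was the latest of the 8 genes in 2-cell and 4-cell embryos. It lies on chromosome 9 (118478212 to 118486132, plus strand) within a single bin. It had replicated in 36 of 53 zygotes (67.9%, 53.7 to 80.1%), 21 of 54 2-cell cells (38.9%, 25.9 to 53.1%), 12 of 50 4-cell cells (24%, 13.1 to 38.2%), 24 of 49 8-cell cells (49%, 34.4 to 63.7%), 26 of 33 16-cell cells (78.8%, 61.1 to 91%), 33 of 44 morula cells (75%) and 43 of 70 ICM cells (61.4%). RT took the values 0.634, 0.358, 0.30, 0.479, 0.738, 0.668 and 0.584 at these stages. The gene was thus early in zygotes, late at the 3 stages that followed and early again at the 16-cell stage and after it. In 2-cell embryos the lowest score of a cell that had replicated Eomes was 37.5%, against 22.6% for Elf5.

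Tfap2c encodes an AP-2 factor that acts upstream of Cdx2 in the outer cells and is also expressed in the oocyte. It lies on chromosome 2 (172549593 to 172558622, plus strand) in 2 bins. Its share was 25 of 49 zygotes (51%), 25 of 54 2-cell cells (46.3%), 18 of 50 4-cell cells (36%), 23 of 48 8-cell cells (47.9%), 25 of 34 16-cell cells (73.5%), 31 of 43 morula cells (72.1%) and 30 of 67 ICM cells (44.8%). It was early only in 16-cell embryos (RT 0.661) and morulae (0.646) of the 14 groups, and was the latest of the 8 genes in zygotes, 8-cell embryos, morulae and the ICM. In both pronuclei it was later than in any other group, at 0.208 in maternal and 0.268 in paternal pronuclei.

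Krt8 (101996698 to 102004482, minus strand) and Krt18 (102028180 to 102032027, plus strand) lie next to each other on chromosome 15 and share a bin, so they are not independent measurements. The shared bin is the only bin of Krt18 and one of the 2 bins of Krt8, and cells in which those 2 bins disagreed have no call for Krt8, so the calls of both genes are the same by construction. Krt18 had replicated in 33 of 53 zygotes (62.3%), 27 of 54 2-cell cells (50%, 36.1 to 63.9%), 23 of 50 4-cell cells (46%), 25 of 49 8-cell cells (51%), 22 of 34 16-cell cells (64.7%, 46.5 to 80.3%), 39 of 44 morula cells (88.6%, 75.4 to 96.2%) and 37 of 70 ICM cells (52.9%, 40.6 to 64.9%). Its RT was 0.546, 0.499, 0.479, 0.495, 0.626, 0.840 and 0.495, and that of Krt8 was 0.538, 0.481, 0.431, 0.495, 0.638, 0.827 and 0.467. Both keratins were thus near the middle of S phase except in 16-cell embryos and morulae, and in morulae Krt18 was the earliest of the 8 genes. The RT of Krt18 ranged over 0.616 across the 14 groups, a wider range than that of 98.1% of protein-coding genes.

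Morulae were also set against 2-cell embryos. Krt8, Krt18, Tead4, Eomes and Cdx2, 5 of the 8 genes, were earlier in morulae by 0.2 or more, as were 47.6% of all protein-coding genes. The differences were 0.39 for Tead4, 0.35 for Krt8, 0.34 for Krt18, 0.31 for Eomes and 0.23 for Cdx2. For all 5 the exact intervals of the shares in morulae and in 2-cell embryos did not overlap. The share of all genes with separate intervals is not given beside this, and Krt8 and Krt18 share a bin and are not independent. Tead4 moved more than 94.8% of genes. Tfap2c differed by 0.16, whereas Gata3 (0.778 in morulae and 0.780 in 2-cell embryos) and Elf5 (0.763 and 0.791) differed by −0.002 and −0.028, with overlapping intervals. The median difference was 0.272 over the 8 genes and 0.192 over all genes, so the typical gene also replicated earlier in morulae.

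Taken stage by stage, few of the 8 genes passed 0.2. In 2-cell embryos against zygotes only Eomes was later, by 0.276 (RT 0.358 in 2-cell embryos and 0.634 in zygotes; 3.41% of genes were later by 0.2 or more and 0.736% earlier), with exact intervals that did not overlap, and Cdx2 differed by −0.174. At scores of 40 to 60% the shares were alike, with Eomes replicated in 9 of 17 zygotes and 14 of 26 2-cell cells. At 60 to 90% it had replicated in 22 of 24 and 4 of 12, and at 10 to 40% in 5 of 12 and 3 of 16. In 4-cell against 2-cell embryos 0 of the 8 genes passed (16.9% of genes were earlier and 3.6% later), with 0.156 for Cdx2 and −0.168 for Gata3. In 8-cell against 4-cell embryos 0 passed (6.15% earlier, 5.19% later), and Eomes came closest at 0.180. In 16-cell against 8-cell embryos Eomes passed with 0.259 (9.64% of genes earlier, 0.644% later), ahead of Tead4 at 0.198 and Tfap2c at 0.192. All 8 genes had a positive difference there, but the median over all genes was positive too (0.074). The share of all genes with a positive difference is not given. In morulae against 16-cell embryos Krt18 passed with 0.214 and Krt8 reached 0.189 (3.43% of genes earlier, 0.916% later), while the other 6 genes differed by −0.070 to 0.098.

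The step between 8-cell and 16-cell embryos depended on the collection hours. The 5 cells of 16-cell embryos collected at 77 h had a mean score of 37.3%, against 60.6% in the 29 cells collected at 80 h, and the 11 cells of 8-cell embryos collected at 72 h had a mean score of 42.9%. Without the 77-h cells all 8 genes were earlier in 16-cell embryos by 0.20 (Eomes) to 0.38 (Tead4), but so were 41.6% of protein-coding genes (2.04% were later), and without the 72-h cells 0 of the 8 genes passed (3.47% earlier, 0.745% later), Eomes standing at 0.194. The difference of Krt18 between morulae and 16-cell embryos likewise was 0.084 without the 77-h cells (1.59% of genes earlier, 4.7% later), so which of the 2 steps carried the keratins could not be settled at these cell numbers.

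**Figure D2:**
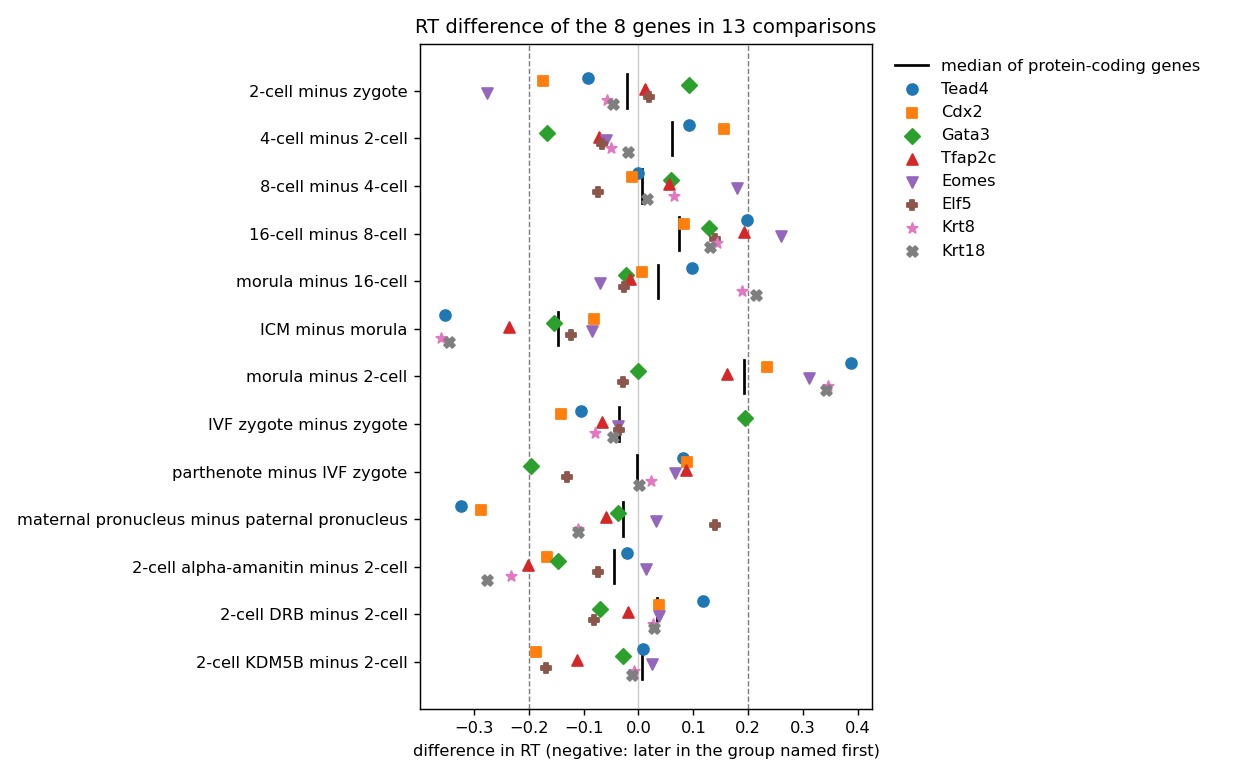
Difference in RT (x axis) of each of the 8 genes in 13 comparisons (y axis), with the group named first minus the group named second, dashed lines at −0.2 and 0.2, and a black bar at the median of all protein-coding genes. Krt8, Krt18 and Tead4 lie left of −0.34 in ICM minus morula and right of 0.34 in morula minus 2-cell, and Krt8 and Krt18 lie left of −0.2 in α-amanitin minus 2-cell.

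Krt8, Krt18 and Tead4, which were earlier in morulae than in 2-cell embryos, turned back in the ICM. Eomes and Cdx2 did not pass 0.2 between morulae and the ICM, and Tfap2c did without having passed before. Krt8 was later in the ICM by 0.360 (RT 0.467 in the ICM and 0.827 in morulae), Tead4 by 0.353 (0.452 and 0.804), Krt18 by 0.345 (0.495 and 0.840) and Tfap2c by 0.236 (0.410 and 0.646), and 33.8% of all protein-coding genes were later by 0.2 or more, with 2.8% earlier. For Krt8, Krt18 and Tead4 the exact intervals in the ICM and in morulae did not overlap, and 2.25 to 3.38% of genes had a lower difference than these. The share of all genes with separate intervals is not given beside this, and Krt8 and Krt18 share a bin and are not independent. Gata3 differed by −0.154, Elf5 by −0.123, Eomes by −0.084 and Cdx2 by −0.081, near the median of −0.147 over all genes or above it. The 37 ICM cells collected after 100 h are not in the table of reads used for quality control and were all kept, so the ICM values rest on more cells than passed quality control in the study. With only the 33 ICM cells of 96 to 100 h, Tead4 (−0.373) and Krt8 (−0.214) were still later than in morulae (22.3% of genes later, 3.13% earlier), Krt18 (−0.171) and Tfap2c (−0.155) did not pass, and Cdx2 differed by 0.015.

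Because scores differed between cells, the 8 genes were also counted within 3 ranges of replication score. At scores of 40 to 60%, Krt18 had replicated in 10 of 26 ICM cells and in 10 of 10 morula cells, and Tead4 in 8 of 26 ICM cells and 9 of 10 morula cells. Cdx2 stood at 20 of 26 ICM cells and 9 of 10 morula cells. At scores of 60 to 90% most cells of both groups had copied each gene, with Krt18 in 21 of 27 ICM cells and 23 of 24 morula cells. At scores of 10 to 40% Tead4 had replicated in 3 of 17 ICM cells and 6 of 10 morula cells, and Krt18 in 6 of 17 ICM cells and 6 of 10 morula cells. In cells with all 8 genes called, a cell of 40 to 60% had replicated 4.80 of the 8 genes on average in 2-cell embryos (25 cells), 4.18 in 4-cell (17 cells), 4.13 in 8-cell (16 cells) and 5.86 in 16-cell embryos (14 cells), 7.63 in morulae (8 cells) and 3.77 in the ICM (26 cells). The same average over other genes is not given, so these values have no background and are not results about the 8 genes. The median RT of all protein-coding genes also rose, from 0.527 in 2-cell embryos to 0.733 in morulae, and was 0.573 in the ICM. All 8 genes had been copied in 3 of 52 2-cell cells, 23 of 41 morula cells and 16 of 64 ICM cells. At the other stages it was 13 of 46 zygotes, 2 of 43 4-cell cells, 11 of 46 8-cell cells and 13 of 32 16-cell cells. These counts were not matched for score and have no background. Scores of 60 to 90% were held by 11 of these 2-cell cells, 24 of the morula cells and 26 of the ICM cells.

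**Figure D3:**
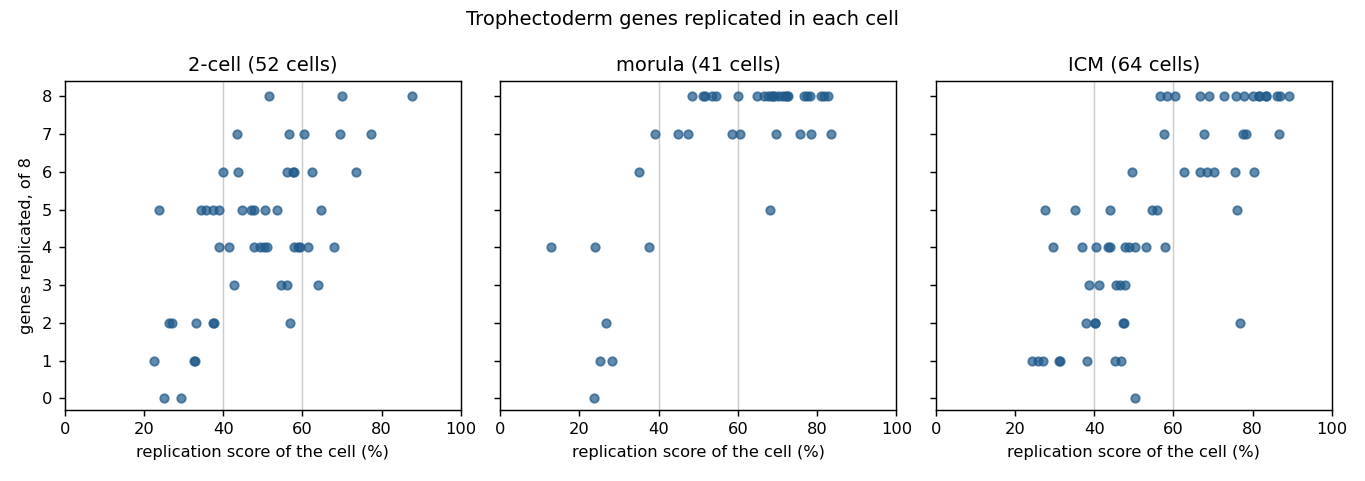
Number of the 8 genes that had replicated in each cell (y axis, cells with all 8 called) against the replication score of the cell (x axis, %), for 2-cell embryos, morulae and the ICM, with grey lines at 40 and 60%. Between the grey lines the 8 morula cells average 7.63 genes and the 26 ICM cells 3.77, with no average over other genes to set beside them.

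The values of a gene were close to the mean of its surroundings. The mean RT of a gene and that of the bins within 0.3 Mb on either side differed by less than 0.1 in all but 2 combinations of gene and group, and by at most 0.103. Within a window RT could nevertheless slope, by up to 0.540 between the latest and the earliest bin (the Krt8 window in 4-cell embryos). The states had been smoothed over 15 bins, so neighbouring bins are not independent, and a change confined to a gene could not be seen. The windows differed in make-up. That of Krt18 held 25 other protein-coding genes and had a GC content of 48.7%, that of Tead4 12 genes and 47.2%, that of Elf5 4 genes and 43.9%, that of Gata3 7 genes and 43.4%, and that of Eomes 2 genes and 45.7%. The median window of a protein-coding gene held 11 others and had a GC content of 44.4%. Cdx2 had 8 other genes and 45.7%, and Tfap2c 8 genes and 49.4%.

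Krt8 and Krt18 sit at one end of the type II keratin cluster, in which Krt18 is the only type I gene. The 24 genes of chromosome 15 with a symbol of Krt and digits span 685 kb. In 2-cell embryos the RT of the 22 genes other than Krt8 and Krt18 lay between 0.323 and 0.454, in morulae between 0.617 and 0.797, and in the ICM between 0.358 and 0.431. At each of these stages Krt18 was the earliest gene of the cluster and Krt8 the next. RT rose further beyond Krt18, outside the cluster. In the bin 295 kb past its middle it was 0.611 in 2-cell embryos, 0.927 in morulae and 0.568 in the ICM. Set against 2-cell embryos, all 24 genes were earlier in morulae (median difference 0.307), and set against morulae all 24 were later in the ICM (−0.288), but they share a few smoothed bins and count as about 1 domain. Krt80, at the far end, was the latest in morulae (0.617), and Krt90 and Krt75, which share a bin, had the widest difference between morulae and 2-cell embryos (0.349). Of 25 keratin genes of chromosome 11, where the other type I keratins lie, 11 were earlier in morulae than in 2-cell embryos and 5 were later in the ICM than in morulae (47.6% and 33.8% of all genes), with Krt17, a keratin of stratified epithelia, the earliest in morulae at 0.825, Krt23 the latest at 0.554 and Krt9 the most changed (0.341).

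**Figure D4:**
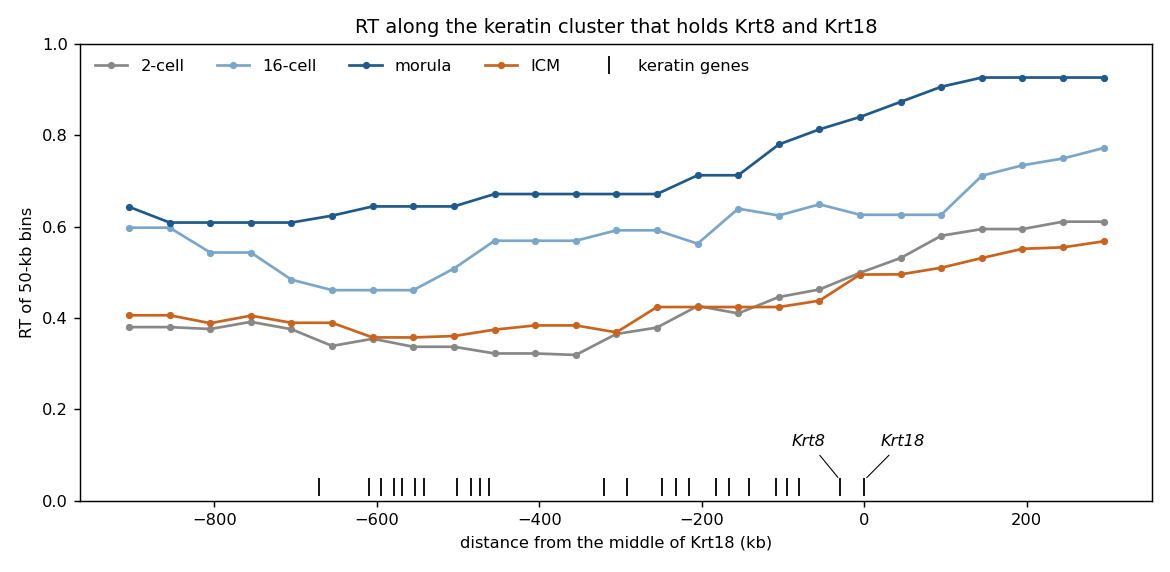
RT of 50-kb bins (y axis) along the keratin cluster of chromosome 15 against the distance from the middle of Krt18 in kb (x axis), in 2-cell and 16-cell embryos, morulae and the ICM, with black ticks at the 24 keratin genes. The morula line lies above the other 3 lines over the whole cluster and all 4 lines are higher at the Krt8 and Krt18 end (Krt18 0.840 in morulae) than at Krt80 (0.617 in morulae).

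Other genes of the same pathway and tissue were read against all protein-coding genes, of which 47.6% were earlier in morulae than in 2-cell embryos and 33.8% later in the ICM than in morulae. Of 13 genes of Hippo and YAP signalling, 7 were earlier in morulae than in 2-cell embryos (median difference 0.235) and 4 were later in the ICM than in morulae. Lats2, a kinase that phosphorylates YAP, was the earliest in morulae (0.915) and its paralogue Lats1 the latest (0.578). Vgll4, which competes with YAP for TEAD factors, moved most (0.341), and Amotl1, an angiomotin that binds YAP at junctions, had the lowest difference (−0.123, with 0.631 in morulae and 0.754 in 2-cell embryos). Of 16 genes of junctions, polarity and cavitation, 11 were earlier in morulae (median difference 0.234) and 6 later in the ICM. F11r, the junctional adhesion molecule A, moved most (0.394), Aqp3, a water channel, was the earliest in morulae (0.903), and Cldn6, a claudin, the latest (0.395).

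Of 12 other trophoblast regulators, 8 were earlier in morulae than in 2-cell embryos (median difference 0.235) and 7 were later in the ICM than in morulae. Hand1, a factor of trophoblast giant cells, moved most (0.382), Esrrb, a nuclear receptor of trophoblast and embryonic stem cells, was the earliest in morulae (0.864), Bmp4, a signalling ligand, the latest (0.568), and Ets2 the least changed (0.088). Of 15 paralogues of the 8 genes, 8 were earlier in morulae (median difference 0.207). They included Tfap2e, the earliest in morulae (0.899), and Elf3, an epithelial ETS factor with the widest difference (0.346), while Tfap2b was late in both groups (0.161 in morulae and 0.325 in 2-cell embryos). Pluripotency regulators, the opposite lineage, gave 8 of 12 earlier in morulae (median difference 0.274) and 6 of 12 later in the ICM than in morulae. Fgf4 moved most (0.535), Tdgf1 was the earliest in morulae (0.865), and Sox2 stood at 0.548 in morulae and 0.702 in 2-cell embryos, a difference within 0.2. No difference between these lists, or between a list and all genes, was tested.

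Across the 14 groups, Tead4 and Krt8 differed from each other by 0.056 in mean absolute RT and Gata3 and Elf5 by 0.063, the closest pairs after the 2 keratins (0.018), and Gata3 and Tfap2c were the farthest apart at 0.285. Gata3, Elf5 and Tfap2c all lie on chromosome 2. The gene of another chromosome whose RT was most like that of each of the 8 over the 14 groups was Spocd1 for Tead4 (mean absolute difference 0.041), Tdh for Cdx2 (0.055), Npr3 for Gata3 (0.032), Adgrd1 for Tfap2c (0.039), Far2 for Eomes (0.049), Alg5 for Elf5 (0.044), Slk for Krt8 (0.049) and Col17a1 for Krt18 (0.049). Slk and Col17a1 are neighbours on chromosome 19, as Krt8 and Krt18 are on chromosome 15, so the matches of both keratins are not independent. A typical gene differed from each of the 8 by 0.144 to 0.176. Each named gene was the closest of 18045 to 19054 genes, so a value below the typical one followed from the choice.

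Inhibition of transcription was examined in 2-cell embryos, all 3 treated groups being set against the same 54 untreated cells, which also served in the comparisons of stages. With α-amanitin, Krt18 had replicated in 10 of 42 cells (23.8%, 12.1 to 39.5%), against 27 of 54 untreated cells (50%, 36.1 to 63.9%), and Krt8 in 10 of 40 (25%), against 25 of 52 (48.1%). RT was 0.224 against 0.499 for Krt18, a difference of −0.275, and 0.249 against 0.481 for Krt8 (−0.232), and Tfap2c stood at 0.284 against 0.485 (−0.201). These 3 of the 8 genes were later by 0.2 or more, as were 7.62% of protein-coding genes (1.88% were earlier), and 1.79% of genes had a lower difference than Krt18. Krt8 and Krt18 share a bin and are not independent, and Tfap2c lay at the threshold. The exact intervals overlapped for all 8 genes. Cdx2 (−0.166) and Gata3 (−0.146) differed by less, and Tead4 (−0.022) and Eomes (0.013) by the least. The median difference was −0.156 over the 8 genes and −0.044 over all genes.

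Collection hours bore on this comparison. Over the hours that both groups shared (26 treated and 37 untreated cells), Krt18 differed by −0.102, Krt8 by −0.069 and Tfap2c by −0.200, so that 1 of the 8 genes was later beside 11.1% of all genes (4.73% earlier), and the median over the 8 genes was −0.084. Elf5, at 0.717 with α-amanitin and 0.791 without, remained the earliest of the 8 genes in both groups.

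With DRB, 0 of the 8 genes passed 0.2 (5.11% of protein-coding genes were earlier and 1.01% later). Tead4 differed most (0.535 with DRB and 0.417 without, 0.118), and Krt18 stood at 0.528 with DRB and 0.499 without. Over shared hours 0 of the 8 genes passed as well (9.17% earlier, 1.45% later). With KDM5B 0 of the 8 genes passed either (1.52% earlier, 1.31% later). Cdx2 had replicated in 24 of 56 cells with KDM5B (42.9%, 29.7 to 56.8%), against 31 of 54 untreated cells (57.4%, 43.2 to 70.8%), with RT of 0.392 against 0.578. A lower difference than this −0.186 was found for 1.91% of genes, and a lower one than that of Elf5 (0.622 with KDM5B and 0.791 without, −0.168) for 2.97%. The intervals overlapped for both genes. Over shared hours Cdx2 differed by −0.142 and Elf5 by −0.162, and 0 of the 8 genes passed (7.92% earlier, 6.27% later). In contrast, over all hours Krt8 and Krt18 differed by −0.007 and −0.012.

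**Figure D5:**
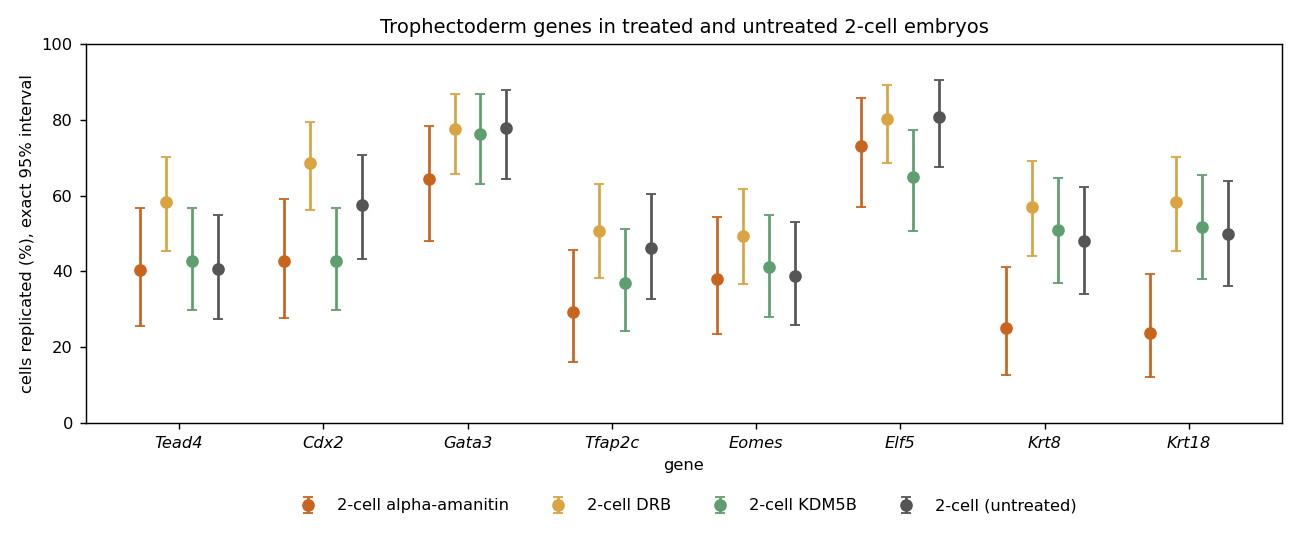
Share of cells (y axis, %) with each of the 8 genes (x axis) replicated in 2-cell embryos with α-amanitin, DRB or KDM5B and in untreated 2-cell embryos, with exact 95% intervals. The α-amanitin circles of Krt8 and Krt18 are at 25% and 23.8%, against 48.1% and 50% in untreated cells, and the intervals overlap.

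In IVF zygotes against natural zygotes 0 of the 8 genes passed 0.2 (1.81% of genes earlier, 9.49% later), Gata3 coming closest with 50 of 56 IVF zygotes (89.3%) against 39 of 53 natural zygotes (73.6%) and a difference in RT of 0.193. In parthenotes against IVF zygotes 0 passed (2.51% earlier, 3.33% later), with −0.197 for Gata3. Over the hours that both groups shared, with 29 parthenote cells, Gata3 was later by 0.272 (10.8% of genes later, 3.12% earlier), and the median over the 8 genes was −0.112, against 0.045 over all hours. Parthenotes hold only maternal genomes, and their RT of Gata3 (0.685) and of Cdx2 (0.699) was within the span of the natural stages.

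In maternal against paternal pronuclei Tead4 was later by 0.324 (RT 0.389 in maternal and 0.713 in paternal pronuclei) and Cdx2 by 0.287 (0.555 and 0.842), beside 14.3% of protein-coding genes (7.07% were earlier). Tead4 had replicated in 9 of 20 maternal pronuclei (45%, 23.1 to 68.5%) and 12 of 17 paternal pronuclei (70.6%, 44 to 89.7%). Cdx2 had replicated in 13 of 20 maternal (65%) and 14 of 17 paternal pronuclei (82.4%). The intervals overlapped for both genes, and these are the smallest groups. Elf5 (0.139) and Eomes (0.032) had the opposite sign, and Tfap2c was late in both parental genomes, in 5 of 19 maternal (26.3%) and 6 of 17 paternal pronuclei (35.3%).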

How the data were processed

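The values deposited by the authors are replication states, 0 or 1, in 49264 autosomal 50-kb bins (GRCm38). Upstream, Bowtie2 2.3.5 aligned the reads, SAMtools 1.9 and bedtools 2.29.0 were used to filter and count them, bins were scaled within each stage, a running median over 15 bins was taken, and copynumber 1.28.0 (segments) and mixtools 1.2.0 (2 states) gave the calls. Read depth per bin was not used here.

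Of 733 cells with states, 714 scored 10 to 90%, and 53 that failed the study's quality control (750000 mapped reads, coefficient of variation of at most 0.1) were left out. Treated 2-cell embryos, paternal pronuclei and the later ICM cells have no entry in the table used, so none of their cells in that score range was removed.

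RT of a bin was the mean, over 16 score intervals 35 points wide and 4.33 apart, of the share of cells replicated, and RT of a gene the mean of its bins. Genes were those of GENCODE M21. Python 3.11.15, NumPy 2.4.6, pandas 2.3.3, SciPy 1.17.1, statsmodels 0.14.6 and Matplotlib 3.10.9 were used, and the scripts were tested on simulated data. Named were all 8 genes, the earliest, latest and most and least changed gene of each companion list, and the most similar gene, except for 1 gene that is not reported here. Alternatives were the raw share of cells, all cells scoring 10 to 90%, scores of 20 to 80%, all bins within 0.3 Mb and restricted collection hours. Members and lists were chosen with earlier results of these data known.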

Additional observations from a re-analysis of the deposited data

How the results depend on the processing

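The median difference of the 8 genes stayed within the counting error of its reported value in all 62 alternatives over the 13 comparisons, but counts of genes past 0.2 moved. That criterion is wide and says little about stability. For 16-cell minus 8-cell embryos it held although the median was 0.141 as reported, 0.248 without the 77-h cells and 0.066 without the 72-h cells. For 16-cell minus 8-cell embryos the count was 1 as reported (9.64% of all protein-coding genes earlier), 8 without the 77-h cells (41.6%) and 0 without the 72-h cells (3.47%). It was 4 with the raw share of cells and 3 at scores of 20 to 80%. Here and below, percentages in brackets are shares of all protein-coding genes. Counts without one have no background here and are not results about the 8 genes. For morula minus 16-cell embryos the count was 1 (3.43% earlier), against 2 with the raw share and 0 without the 77-h cells (1.59%). It was also 0 with all bins within 0.3 Mb or at scores of 20 to 80%. For ICM minus morula it was 4 (33.8% later), against 2 with the ICM cells of 96 to 100 h (22.3%). For α-amanitin minus 2-cell it was 3 (7.62% later), against 2 with the raw share or all bins within 0.3 Mb and 1 at shared hours (11.1%). For the pronuclei it was 2 (14.3% later), against 1 with the raw share and 4 at scores of 20 to 80%. The sign of the median turned, within counting error, for parthenote minus IVF zygote at shared hours (−0.112 for 0.045), for KDM5B minus 2-cell with the raw share (0.0019 for −0.020), and for morula minus 16-cell (−0.0048) with all cells scoring 10 to 90% (0.022) or all bins within 0.3 Mb (0.023). Counts of 0 became 1 for 4-cell minus 2-cell and 8-cell minus 4-cell with the raw share, for 8-cell minus 4-cell without the 72-h cells, and for IVF minus natural zygote and parthenote minus IVF zygote with all cells.

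With a replicate block, pairing pronuclei by label number, the median difference of the 8 genes was −0.106, against −0.085 unpaired, with 3 genes later for 2. A share of all genes is not given for the paired count. Both pronuclei of a zygote were processed, but whether a shared number marks a shared zygote is not stated in the labels, and the data gave no sign of it: over 10 pairs, scores gave Pearson's r of −0.228 (permutation p = 0.520) and Spearman's rho of −0.321 (permutation p = 0.368), and 0 of 10 pairs had deviations correlated above 0.1. Cells per group, 17 to 70, limit the precision, and intervals cover counting error only.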
